A study of Mus musculus with 13 samples.

Results

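The nuclear-encoded proteins of oxidative phosphorylation were followed as transcripts in mouse bone marrow. Members were taken by name alone: every gene whose symbol starts with Nduf, Uqcr, Cox4, Cox5, Cox6, Cox7, Cox8 or Atp5, and Sdha, Sdhb, Sdhc and Sdhd. This gave 93 of the 19505 gene symbols on the arrays, each read by 1 probe set. They comprise 36 subunits of complex I, 8 assembly factors of complex I, 4 subunits of complex II, 8 of complex III, 20 of complex IV and 17 of complex V. Ndufa4 and its relative Ndufa4l2 were counted with complex IV, where the protein is now placed in spite of its name. The subunits encoded by mitochondrial DNA were not analysed here.

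LSK cells, which are rich in blood stem cells and progenitors, came from Cas9 knock-in mice and were transduced with guide RNAs. They were given 24 h later to C57Bl/6J hosts irradiated with 7 Gy, and whole marrow was collected at signs of leukemia or at 6 months. Marrow with the BRSST guides and sgLuc (BRSST-Luc) was measured on 5 arrays, marrow with the BRSST guides and sgEzh2 (BRSST-Ezh2) on 4, and marrow with sgLuc alone (Luc) on 4. All 3 groups thus share Cas9, irradiation, transplantation and a guide, and sgLuc is the guide that stands in for sgEzh2. BRSST is not spelled out in the labels. Which arrays come from leukemic mice, the ages of the mice and whether each array is a separate mouse are not stated there either. Without separate mice the p-values cover only the spread between these samples, which could be technical. Unsorted marrow can also hold host cells that outlived irradiation and donor cells without an edit.

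Oxidative phosphorylation makes most of the ATP of resting cells in the inner mitochondrial membrane. Complexes I and II take electrons from NADH and succinate, complex III passes them from ubiquinol to cytochrome c, and complex IV hands them to oxygen. Complexes I, III and IV pump protons, and complex V, the ATP synthase, lets the protons flow back through its rotating c ring and makes ATP in its F1 head. Complex II is also an enzyme of the citrate cycle and has no subunit encoded by mitochondrial DNA. In the marrow, quiescent stem cells lean on glycolysis, while dividing progenitors, red cell precursors and many leukemias depend more on respiration.

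Values are log2 signals, so a difference of 1 is a doubling, and a level of 1 gene cannot be set against that of another because their probes differ. Of the 93 members 89 were tested, because their signal lay above the median of all probe sets in at least 4 arrays. Cox7b2, Cox8b, Ndufa4l2 and Ndufaf1 lay below that median on all 13 arrays and were not tested. Array medians ran from 7.19 to 7.32, and the members were quieter between replicates than other genes, with a median SD of 0.09 in BRSST-Ezh2, 0.169 in BRSST-Luc and 0.1 in Luc, against 0.188, 0.248 and 0.154 over all genes tested. These SDs were not matched for signal level. Neutrophil markers, the main cells of the marrow, averaged 12.4 to 12.7 on every array. Ezh2 read 8.08 to 9.22 in BRSST-Ezh2, 9.15 to 10.46 in BRSST-Luc and 9.94 to 10.55 in Luc. The Y-linked genes Uty and Kdm5d were high on 2 of 4 BRSST-Ezh2, 2 of 5 BRSST-Luc and 4 of 4 Luc arrays. The sample numbers in the labels run on through both BRSST groups and start anew after a gap for Luc, so a batch and the Luc group cannot be told apart. Within BRSST-Luc, replicate 2 had the highest B lineage mean (8.15, against 6.62 to 6.99 on the other arrays) and replicate 5 the lowest mean of the members (10.53, against 10.70 to 10.86).

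Transcripts of the respiratory complexes were higher in BRSST-Luc marrow than in Luc marrow, the comparison that asks what the BRSST guides change. In 83 of 89 members the mean was higher, as in 51.1 percent of all genes tested, with a median difference of log2 0.30, where the median of all genes tested was 0.01. A test with limma called 37 members higher and 1, Sdha, lower at an adjusted p of 0.05. Among all 10601 genes tested the same rule called 22.5 percent, of which 10.8 percent were higher and 11.7 percent lower. The share of members called higher was 41.6 percent. The 5 BRSST-Luc arrays lay wholly above the 4 Luc arrays for 35 members, against a background of 9.09 percent of genes, and wholly below for 1, against 9.82 percent.

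The rise reached every complex but was uneven within each. Called higher were 17 of 36 complex I subunits, 2 of 7 tested complex I assembly factors, 3 of 4 complex II subunits, 3 of 8 of complex III, 6 of 17 tested of complex IV and 6 of 17 of complex V. The medians were log2 0.33, 0.38, 0.42, 0.23, 0.18 and 0.31 in the same order. Averaged over the 77 subunits in general use, which leaves out assembly factors and tissue forms, Luc arrays lay between 10.93 and 11.06, BRSST-Luc arrays between 11.10 and 11.42 and BRSST-Ezh2 arrays between 11.17 and 11.29. No array of either BRSST group reached down to a Luc array on this mean, and BRSST-Luc replicate 5 came closest. For 29 of the 89 tested members (32.6 percent) all 9 BRSST arrays lay above all 4 Luc arrays, against 5.74 percent of all genes tested. The count of 38 calls was 22 without Luc replicate 1, 55 without BRSST-Luc replicate 5 and 63 with array quality weights, where 14, 26.8 and 46 percent of all genes were called, and 22 of the calls survived all 13 fits that each omitted 1 array.

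**Figure D1:**
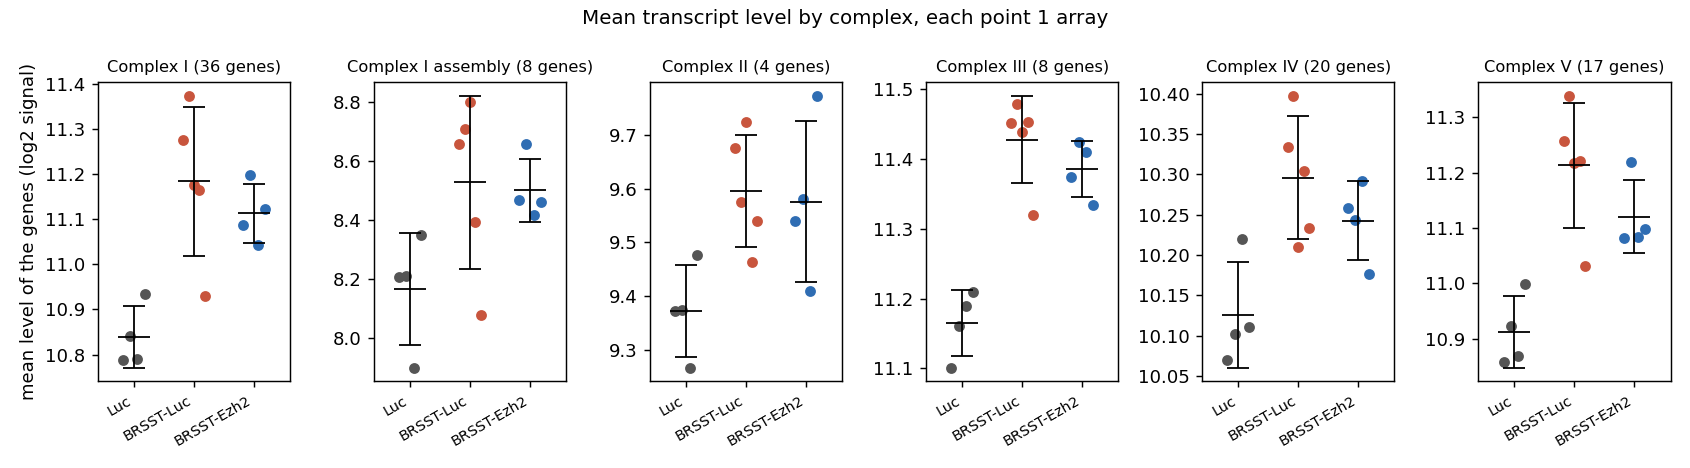
Mean log2 signal of the genes of each complex (y axis, with its own range in each panel) on each array (points) of the Luc, BRSST-Luc and BRSST-Ezh2 groups (x axis), with the group mean and SD as bars. The complex I mean runs from 10.79 to 10.93 in Luc, 10.93 to 11.37 in BRSST-Luc and 11.04 to 11.20 in BRSST-Ezh2, and complex III keeps the widest gap, with Luc at 11.10 to 11.21 and both BRSST groups at 11.32 to 11.48.

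In whole marrow, fewer cells of a type and less RNA per cell cannot be told apart, and markers of several cell types also differed between the groups. Erythroid markers, of which 16 of 21 listed were measured, averaged 7.03 to 7.27 in Luc, 7.49 to 8.27 in BRSST-Luc and 6.88 to 7.54 in BRSST-Ezh2. Of 11 tested, 5 were called higher in BRSST-Luc than in Luc and 0 in BRSST-Ezh2 than in Luc, where the smallest adjusted p was 0.0653. B lineage markers averaged 8.77 to 10.05 in Luc, 6.62 to 8.15 in BRSST-Luc and 6.73 to 8.54 in BRSST-Ezh2, and 12 of 13 tested fell in BRSST-Luc. T and NK cell markers averaged 8.24 to 8.69, 6.53 to 8.06 and 6.46 to 8.57 in the same groups, and 7 of 11 tested fell in BRSST-Luc. Monocyte and macrophage markers averaged 10.34 to 10.49 in Luc, 9.10 to 10.06 in BRSST-Luc and 9.89 to 10.59 in BRSST-Ezh2, with 9 of 14 tested lower in BRSST-Luc. Of 17 neutrophil markers 2 rose and 6 fell in BRSST-Luc, of 8 stem and progenitor markers 2 fell, and of 18 cell cycle genes 2 fell. The count of cell cycle genes is near the 11.7 percent of all genes called lower. The part of these cell types in the members' differences was not tested.

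Complex I, the NADH dehydrogenase, held the most calls. Its core subunits carry the flavin and the iron-sulfur clusters that pass electrons, and its accessory subunits surround that core and hold the membrane arm together. Of 6 core subunits 2 were called higher in BRSST-Luc, and of 30 accessory subunits 15 were. Ndufb10, an accessory subunit of the membrane arm, had the largest difference of the complex. Its signal was 11.33, 11.30, 11.10, 11.31 and 10.90 in BRSST-Luc and 10.28, 10.35, 10.26 and 10.62 in Luc. Every BRSST-Luc array was above every Luc array, and the difference was log2 0.81 ± 0.12 (SE, n = 5 and 4), or 1.75-fold (limma adjusted p = 0.000459). Ndufb5, another subunit of the membrane arm, read 11.41, 11.38, 11.16, 11.24 and 11.23 against 10.52, 10.63, 10.43 and 10.82, with no overlap. It rose by log2 0.69 ± 0.10 (limma adjusted p = 0.000591). Ndufb8 rose by 0.67 ± 0.12 (0.00201) and Ndufa11 by 0.60 ± 0.14 (0.00819), both also membrane arm subunits.

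The other accessory subunits called higher were Ndufa10, Ndufa8, Ndufv3, Ndufa12, Ndufs6, Ndufb9, Ndufa5, Ndufb4b, Ndufc2, Ndufb3 and Ndufb11, with differences from log2 0.24 to 0.59. Ndufb4b is a near copy of Ndufb4, so their probes may share signal. The core subunits called higher were Ndufv1, which binds NADH and the flavin, at log2 0.47 ± 0.11 (limma adjusted p = 0.00812), and Ndufs3 at 0.45 ± 0.09 (0.00287). Ndufs8 (0.42), Ndufs7 (0.34), Ndufv2 (0.28) and Ndufs1 (0.11), which carry iron-sulfur clusters, did not pass, with adjusted p from 0.0509 to 0.769. Across the 36 subunits the difference was above 0 in 35, the exception being Ndufa9 at -0.02. When single arrays were omitted, 10 of the 17 calls always held. Ndufb4b, Ndufc2, Ndufb3 and Ndufb11 lost theirs without any of Luc replicates 1, 2 and 3, BRSST-Luc replicates 1, 2 and 4 and BRSST-Ezh2 replicates 1 and 3, among others (adjusted p of up to 0.149). Ndufa5 did so without any of Luc replicates 1 to 4 or BRSST-Luc replicates 1 and 4, Ndufs6 without Luc replicate 1 or 3 or BRSST-Luc replicate 1 or 4, and Ndufb9 without Luc replicate 1 or 3 or BRSST-Luc replicate 1 (up to 0.0927).

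Complex I is built in steps by assembly factors that are not part of the finished enzyme, and 2 of 7 of these rose. Ndufaf4, which acts early in assembly, had the largest difference of all members. It read 9.45, 9.10, 9.46, 9.06 and 8.88 in BRSST-Luc and 8.65, 8.55, 7.48 and 8.47 in Luc. The groups did not overlap, but Luc replicate 3 lay far below the other Luc arrays. The difference was log2 0.91 ± 0.22 (limma adjusted p = 0.0105), and 0.64 (0.0197) without that array. Ndufaf6 rose by 0.66 ± 0.17 (0.0139), and its Luc signal was 8.08, 8.30, 7.37 and 8.17, again lowest on replicate 3. Without that replicate its difference was 0.45 (0.027). Ndufaf5 (0.53), Ndufaf8 (0.38), Ndufaf2 (0.18), Ndufaf3 (0.16) and Ndufaf7 (-0.02) did not pass, with adjusted p from 0.0583 to 0.951.

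Complex II, succinate dehydrogenase, was the only complex with calls in both directions in this comparison. Sdha, the flavoprotein that oxidises succinate, was lower in BRSST-Luc marrow, while Sdhb, the iron-sulfur subunit, and Sdhc and Sdhd, the membrane anchors, were higher. Sdha alone was called lower, and no promoter sequence was found for Sdhc. The 250 bases before the annotated start of transcription are therefore shown for Sdha, its partner subunit Sdhb and the anchor Sdhd. They are from RefSeq on GRCm38.p6, written 5′ to 3′ in the direction of transcription. They span chr13:74350241-74350490 (minus strand) for Sdha, chr4:140961021-140961270 (plus strand) for Sdhb and chr9:50603850-50604099 (minus strand) for Sdhd. Capitals mark matches, on either strand, to the letters of the nuclear respiratory factor 1 (NRF1) motif (GCGCA, any base, then GCGC) and to CCGGAAG, the letters of an ETS factor motif.
Sdha: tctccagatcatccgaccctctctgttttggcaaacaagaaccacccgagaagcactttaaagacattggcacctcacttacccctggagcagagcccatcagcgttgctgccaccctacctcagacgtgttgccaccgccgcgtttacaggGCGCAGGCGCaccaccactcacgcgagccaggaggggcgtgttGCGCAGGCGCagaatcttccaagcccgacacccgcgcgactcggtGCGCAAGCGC
Sdhb: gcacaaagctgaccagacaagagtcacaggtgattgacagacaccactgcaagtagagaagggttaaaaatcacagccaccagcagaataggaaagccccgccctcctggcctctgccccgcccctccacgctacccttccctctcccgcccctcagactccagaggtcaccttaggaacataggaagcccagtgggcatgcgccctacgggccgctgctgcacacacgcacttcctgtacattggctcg
Sdhd: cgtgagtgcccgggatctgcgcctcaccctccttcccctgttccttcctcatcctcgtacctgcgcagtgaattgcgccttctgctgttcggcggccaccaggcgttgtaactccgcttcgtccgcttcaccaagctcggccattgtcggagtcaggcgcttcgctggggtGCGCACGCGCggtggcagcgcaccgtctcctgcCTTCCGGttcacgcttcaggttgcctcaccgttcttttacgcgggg
The NRF1 letters start at bases -98, -55 and -10 before the start of Sdha and at -79 before that of Sdhd. The ETS letters start at -46 before Sdhd and at base 7 after the start of Sdhb, outside the stretch shown. A match describes letters and does not show that a factor binds.

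Sdhd had the smallest adjusted p of all members. Its signal was 10.18, 10.38, 10.19, 9.99 and 10.03 in BRSST-Luc, 9.78, 9.87, 9.77 and 9.94 in BRSST-Ezh2 and 9.36, 9.35, 9.45 and 9.43 in Luc. The 3 groups did not overlap, with BRSST-Luc highest and Luc lowest. The difference of BRSST-Luc from Luc was log2 0.76 ± 0.10, or 1.69-fold (limma adjusted p = 0.000237), and it held in each fit without 1 array. Sdha read 8.28, 7.44, 8.65, 7.52 and 8.42 in BRSST-Luc, 8.48, 8.77, 8.44 and 9.04 in BRSST-Ezh2 and 8.74, 8.78, 8.66 and 8.89 in Luc. BRSST-Luc arrays were all below the Luc arrays, by very little on replicate 3 and by over 1 on replicates 2 and 4, and BRSST-Ezh2 arrays overlapped both groups. Sdha differed by log2 -0.71 ± 0.23, or 1.63-fold lower (limma adjusted p = 0.0407).

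The Sdha call ended without any of 8 of the 13 arrays: BRSST-Luc replicates 1, 2 and 4, Luc replicates 1, 2, 3 and 4 and BRSST-Ezh2 replicate 2, with differences from log2 -0.76 to -0.55 and adjusted p from 0.0506 to 0.0971. It also ended with equal medians (-0.67, 0.067) and in a fit of the 2 groups alone (0.0657). Sdhb read 11.77, 11.94, 11.63, 11.73 and 11.33 in BRSST-Luc and 11.28, 11.21, 11.23 and 11.45 in Luc, and the lowest BRSST-Luc array, replicate 5, fell among the Luc arrays. It rose by log2 0.39 ± 0.13 (limma adjusted p = 0.0407), a call lost without any of BRSST-Luc replicates 1 to 4, Luc replicates 1 to 3 and BRSST-Ezh2 replicates 1 and 2 (up to 0.107) and in the fit of the 2 groups (0.0606). Sdhc read 8.47, 8.54, 8.43, 8.62 and 8.37 against 8.11, 8.16, 7.72 and 8.13 and rose by 0.45 ± 0.12 (0.0134), or 0.35 (0.0393) without Luc replicate 3. The anchors Sdhc and Sdhd thus kept their calls in all 13 of those fits, and the matrix subunits Sdha and Sdhb did not.

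**Figure D2:**
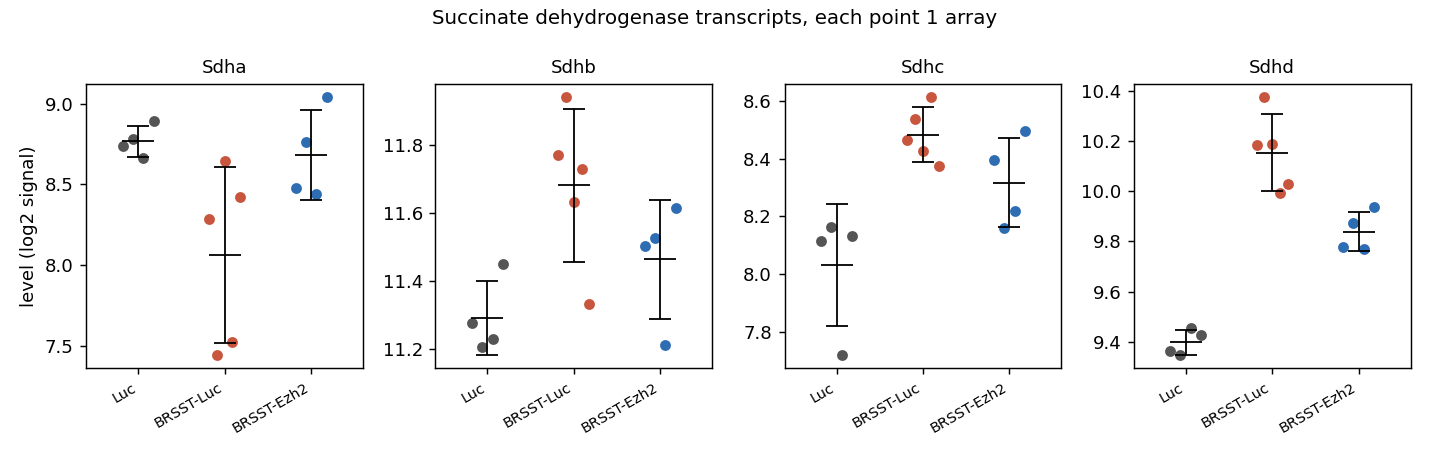
Log2 signal (y axis, with its own range in each panel) of the 4 succinate dehydrogenase genes on each array (points) of the 3 groups (x axis), with the group mean and SD. Sdhd separates all 3 groups (Luc up to 9.45, BRSST-Ezh2 from 9.77 to 9.94, BRSST-Luc from 9.99), while Sdha spreads from 7.44 to 8.65 in BRSST-Luc and stays between 8.66 and 8.89 in Luc.

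In complex III the Rieske iron-sulfur protein Uqcrfs1, which passes electrons from ubiquinol, rose most. It read 10.50, 10.58, 10.29, 10.38 and 10.45 in BRSST-Luc, 10.27, 10.33, 10.28 and 10.25 in BRSST-Ezh2 and 9.74, 9.87, 9.82 and 9.88 in Luc. All 9 BRSST arrays were above all Luc arrays, and the replicates lay close together. BRSST-Luc exceeded Luc by log2 0.61 ± 0.09, or 1.52-fold (limma adjusted p = 0.000487). The small subunits Uqcr11 and Uqcr10 rose by 0.47 ± 0.12 (0.0119) and 0.36 ± 0.08 (0.00831), and Uqcr11 lost its call without Luc replicate 1 (0.0508). The core proteins, which face the matrix, did not pass: Uqcrc1 was at 0.27 and Uqcrc2 at -0.03, with adjusted p of 0.133 and 0.87. The small subunits Uqcrq (0.19), Uqcrb (0.15) and Uqcrh (0.09) did not pass either, although the groups did not overlap for Uqcrb and Uqcrh.

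Complex IV, cytochrome c oxidase, has several subunits with a general form and a form tied to a tissue such as muscle or testis. Of 11 general forms 5 were called higher in BRSST-Luc. Ndufa4, a subunit loosely held by the enzyme, read 12.25, 12.25, 12.14, 12.26 and 11.99 in BRSST-Luc and 11.62, 11.80, 11.86 and 11.77 in Luc. With no overlap it rose by log2 0.42 ± 0.09 (limma adjusted p = 0.00672), and it was the call of this complex that held in each fit without 1 array. Cox6b1, which links the dimer, rose by 0.43 ± 0.12 (0.0171), Cox8a by 0.37 ± 0.10 (0.0166), Cox5b by 0.33 ± 0.10 (0.0234) and Cox4i1 by 0.25 ± 0.08 (0.0397). Cox6b1 lost its call without Luc replicate 1 or 3, Cox8a without Luc replicate 1 or 2, Cox5b without Luc replicate 1 or 2 or BRSST-Luc replicate 1 or 4, and Cox4i1 without any of 10 arrays, Luc replicates 1 to 4 among them (adjusted p of up to 0.121). The general forms Cox6c, Cox7b, Cox7a2, Cox6a1, Cox5a and Cox7c lay between -0.03 and 0.21 and did not pass, nor did Cox7a2l, a factor of supercomplexes, at 0.19.

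Of the 8 tissue forms 5 were tested, and Cox6b2, the testis form, was called higher. It read 10.47, 11.20, 10.96, 10.25 and 11.19 in BRSST-Luc, 10.85, 10.88, 10.81 and 10.86 in BRSST-Ezh2 and 10.13, 10.15, 10.33 and 10.23 in Luc. BRSST-Ezh2 lay above Luc on every array, and in BRSST-Luc replicate 4 fell among the Luc arrays. BRSST-Luc exceeded Luc by log2 0.61 ± 0.17 (limma adjusted p = 0.0235), but this call ended without Luc replicate 1 or 2 (up to 0.0681), in the fit of the 2 groups (0.0557) and with the Y-linked class as a block, where the difference was 0.37 (0.137). Its general partner Cox6b1 had means of 11.15 ± 0.21 (SD, n = 5) in BRSST-Luc, 11.01 ± 0.09 (n = 4) in BRSST-Ezh2 and 10.72 ± 0.13 (n = 4) in Luc. Cox6a2, the form of heart and muscle, was at -0.26 ± 0.10 (0.0876), while its general partner Cox6a1 was at 0.11 ± 0.10 (0.476). Cox4i2 of lung (0.02), Cox7a1 of muscle (0.06) and Cox8c of testis (0.12) did not pass. The untested forms stayed dim: Cox7b2 read 4.60 to 5.25, Cox8b 6.14 to 7.12 and Ndufa4l2, known to be induced in hypoxia, 5.79 to 6.60 over the 13 arrays.

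In complex V the 3 genes of the c ring rose and the 5 genes of the F1 head did not pass. Atp5g1, Atp5g2 and Atp5g3 encode the same mature c subunit behind different import signals. Atp5g1 read 11.01, 11.13, 11.09, 10.97 and 10.60 in BRSST-Luc, 10.74, 11.02, 10.78 and 10.66 in BRSST-Ezh2 and 10.20, 10.29, 10.33 and 10.31 in Luc. Every BRSST array lay above every Luc array. BRSST-Luc exceeded Luc by log2 0.68 ± 0.12, or 1.60-fold (limma adjusted p = 0.00165), and Atp5g3 and Atp5g2 by 0.51 ± 0.11 (0.00473) and 0.40 ± 0.10 (0.00977). In the F1 head, Atp5b, the catalytic subunit, read 12.75, 12.60, 12.79, 12.69 and 12.72 in BRSST-Luc and 12.69, 12.67, 12.53 and 12.67 in Luc, with the groups overlapping. It differed by 0.07 ± 0.09 (0.617), Atp5a1 by 0.10 ± 0.12 (0.605), Atp5d by 0.17 ± 0.11 (0.297), Atp5c1 by 0.31 ± 0.12 (0.0731) and Atp5e by 0.35 ± 0.15 (0.114). The difference between c ring and F1 genes was not itself tested, and Atp5a1 and Atp5b are among the brightest probe sets, where signals can be compressed.

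**Figure D3:**
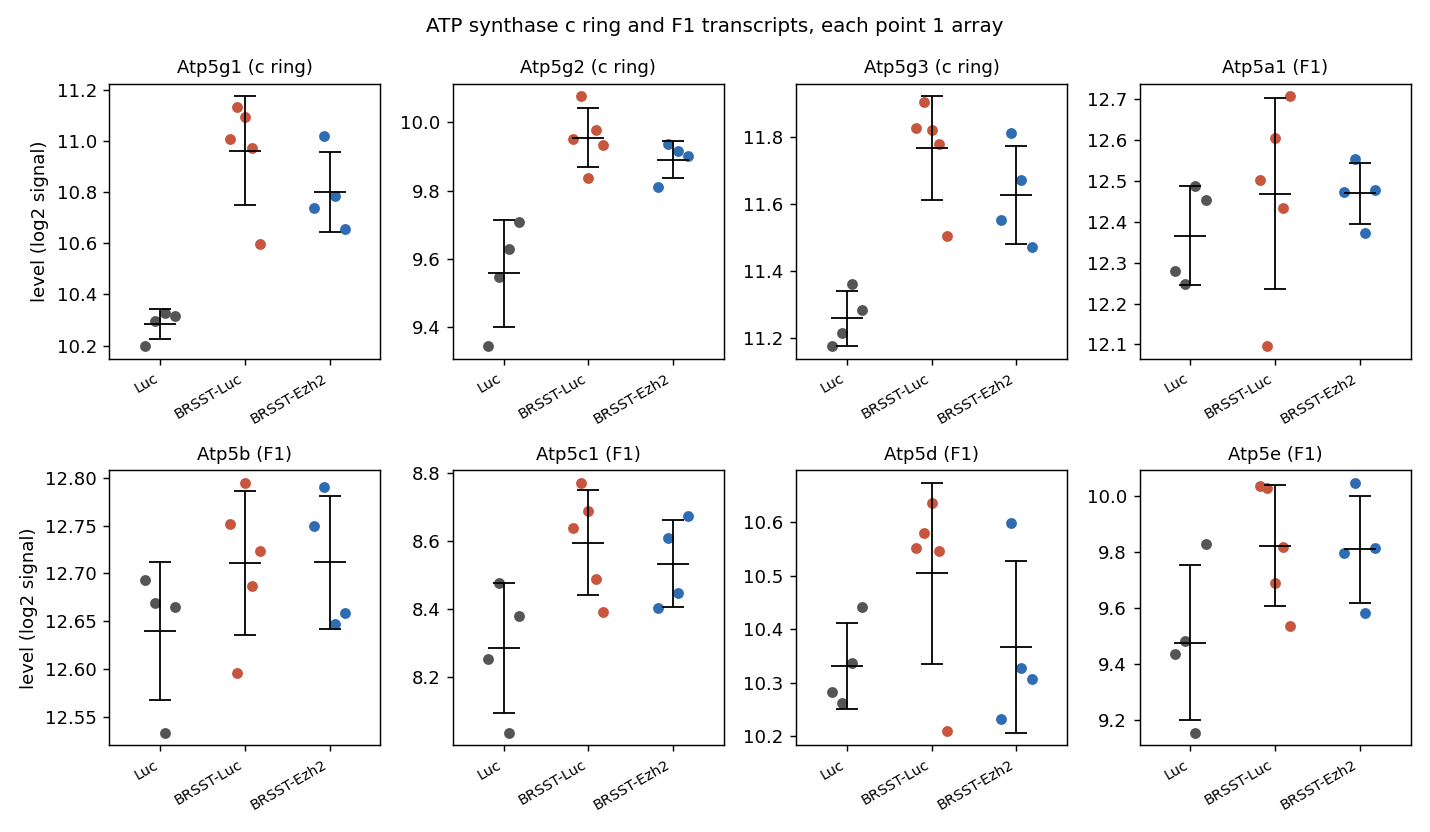
Log2 signal (y axis, with its own range in each panel) of the 3 c ring genes and the 5 F1 genes of ATP synthase on each array (points) of the 3 groups (x axis), with the group mean and SD. For Atp5g1 the Luc arrays end at 10.33 and both BRSST groups start at 10.60 or above. For Atp5b the groups overlap, with Luc starting at 12.53 and BRSST-Luc ending at 12.79.

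Among the stalk subunits that hold the F1 head still, Atp5o rose by log2 0.42 ± 0.10 (limma adjusted p = 0.00853). It read 10.82, 10.88, 10.85, 10.81 and 10.60 in BRSST-Luc and 10.25, 10.30, 10.41 and 10.53 in Luc, with no overlap. Atp5j (0.18), Atp5pb (0.17) and Atp5h (0.14) did not pass. Of 5 small membrane subunits, Atp5l, which takes part in dimers of the enzyme, rose by 0.50 ± 0.11 (0.00451) and Atp5mpl by 0.32 ± 0.10 (0.0404). The call of Atp5mpl ended without any of 10 arrays, Luc replicates 1 to 4 and BRSST-Luc replicates 1 to 4 among them (up to 0.12), and the other 5 calls of the complex always held. Atp5k (0.36), Atp5j2 (0.27) and Atp5md (0.17) did not pass, with adjusted p from 0.0618 to 0.168.

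The size of the difference also varied with signal level. Of the 24 tested members with a mean level of at least log2 12, 8 were called higher and the median difference was 0.18. Between 10 and 12, 24 of 43 were called higher with a median of 0.39, and below 10, 5 of 22 with a median of 0.32. In all genes tested the shares called higher were 18.6 percent, 16.1 percent and 9.04 percent in the same bins. Among the members of at least log2 12, Cox7c and Uqcrh sat near 0, while Ndufs3 and Cox5b were called higher. Whether bright signals were compressed was not tested.

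**Figure D4:**
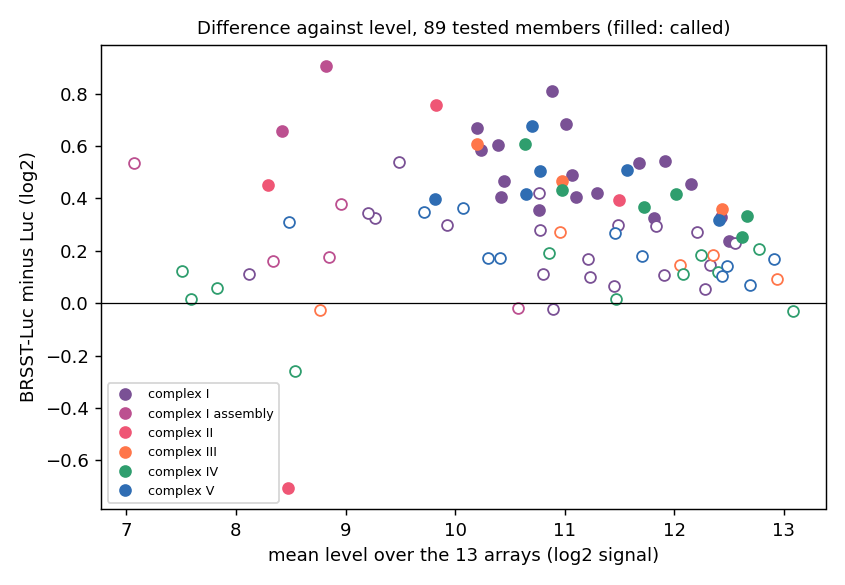
Difference of BRSST-Luc from Luc in log2 (y axis) against the mean log2 signal over all 13 arrays (x axis) for the 89 tested members, coloured by complex, with filled points for limma adjusted p under 0.05. Sdha stands alone at -0.71, and members of mean level 12 and above have a median of 0.18, against 0.39 for those between 10 and 12.

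BRSST-Ezh2 marrow, set against Luc to ask what the BRSST and Ezh2 guides change together, had 16 members higher and 1 lower. Among all genes tested limma called 9.37 percent, 5.51 percent higher and 3.86 percent lower, and 18 percent of the members were called higher. The difference was above 0 in 82 of 89 members, as in 53.7 percent of all genes tested, with a median of log2 0.23 where that of all genes was 0.02. Called higher were 8 of 36 complex I subunits, 2 of 7 assembly factors, 1 of 4 of complex II, 2 of 8 of complex III, 1 of 17 of complex IV and 2 of 17 of complex V. For 46 members the BRSST-Ezh2 arrays lay wholly above the Luc arrays, against a background of 14.2 percent, and for 1 wholly below, against 9.06 percent (23.3 percent in either direction). Because this comparison and the one before it use the same Luc arrays, their calls are not independent.

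Ndufb10 again read high, with 11.03, 11.12, 10.92 and 10.99 in BRSST-Ezh2, all above its Luc arrays, and rose by log2 0.63 ± 0.12 (SE, n = 4 and 4; limma adjusted p = 0.00524). Ndufv1 read 10.64, 10.74, 10.56 and 10.61 against 9.99, 9.95, 10.24 and 10.21 and rose by 0.54 ± 0.11 (0.00887). Ndufa11 rose by 0.51 ± 0.15 (0.0442) and Ndufb5 by 0.48 ± 0.11 (0.0124), and Ndufb8, Ndufa10, Ndufa8 and Ndufs3 were the other complex I calls. The assembly factors Ndufaf5 and Ndufaf6 rose by 0.70 ± 0.20 (0.0426) and 0.60 ± 0.18 (0.0485). Ndufaf5 averaged 7.35 in BRSST-Ezh2 and 6.65 in Luc, which is below every array median. It thus passed the filter through its BRSST arrays, where it is higher, and its call carries little weight. Sdhd rose by 0.44 ± 0.10 (0.0158), while Sdhc (0.29), Sdhb (0.17) and Sdha (-0.08) did not pass. Uqcrfs1 rose by 0.45 ± 0.09 (0.00763) and Uqcr11 by 0.44 ± 0.12 (0.0385). In complex V, Atp5g1 rose by 0.52 ± 0.13 (0.02) and Atp5o by 0.35 ± 0.10 (0.0485).

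Tissue forms of complex IV moved in both directions. Cox6a2, the form of heart and muscle, read 8.41, 8.32, 8.35 and 8.09 in BRSST-Ezh2 and 8.73, 8.85, 8.93 and 8.64 in Luc. All BRSST-Ezh2 arrays were below the Luc arrays, by log2 -0.50 ± 0.11, or 1.41-fold lower (limma adjusted p = 0.011). Its general partner Cox6a1 was at 0.15 ± 0.10 (0.433). Cox6b2 rose by 0.64 ± 0.18 (0.044), and with the Y-linked class as a block was at 0.44 (0.115). Of the general forms of complex IV 0 were called by limma, although 4 had an unadjusted p under 0.05, all higher, where 14.3 percent of all genes were higher and 9.98 percent lower by that rule.

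Many of these calls depended on single arrays. When each array was omitted in turn, the calls of Ndufa10, Ndufb10, Ndufv1, Uqcrfs1 and Cox6a2 always held, and the other 12 did not. The count of 17 fell to 5, 7 and 8 without Luc replicates 1, 2 and 3, to 8, 7, 8 and 11 without BRSST-Ezh2 replicates 1 to 4, and to 11 and 10 without BRSST-Luc replicates 1 and 4, where 4.9 to 8.41 percent of all genes were called. It was 29 without BRSST-Luc replicates 2 and 5 together, which enter only through the estimate of the spread, and 43 with array quality weights, where 16.4 and 28.1 percent of all genes were called. Sdhd lost its call without Luc replicate 1 or 2 (limma adjusted p of up to 0.0551), Ndufb5 without Luc replicate 1 (0.0507) and Atp5g1 without Luc replicate 1 or 2 or BRSST-Ezh2 replicate 2 (up to 0.0708). Ndufa11, Ndufb8, Ndufa8, Ndufs3, Uqcr11, Cox6b2, Atp5o, Ndufaf5 and Ndufaf6 lost theirs without any of 8 to 10 arrays, Luc replicates 1 and 3 and BRSST-Ezh2 replicates 1, 2 and 3 always among them (up to 0.161). Erythroid markers averaged 6.88 to 7.54 in BRSST-Ezh2 and 7.03 to 7.27 in Luc, with 0 of 11 tested called. Of the other cell types, 5 of 13 tested B lineage markers fell in BRSST-Ezh2 against Luc, with a median over the 13 of log2 -1.77. For T and NK cells 1 of 11 markers fell (median -0.93), for monocytes and macrophages 3 fell and 1 rose of 14 (median -0.12), and for neutrophils 2 fell and 2 rose of 17. Their part in the members' differences was not tested.

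Between BRSST-Ezh2 and BRSST-Luc, which differ in sgEzh2 against sgLuc beside the BRSST guides, no member passed. Limma called 0 of 89 at an adjusted p of 0.05, where 0.783 percent of all genes were called (0.67 percent higher and 0.113 percent lower). At an unadjusted p under 0.05 there were 5 members, against 13.9 percent of all genes, 1 higher and 4 lower (9.67 and 4.22 percent of all genes). The members leaned lower in BRSST-Ezh2, with 68 below and 21 above 0, where 52.6 percent of all genes were above, and a median of log2 -0.06, where that of all genes was 0.01. The smallest adjusted p was that of Sdhd, which differed by -0.31 ± 0.10 (0.165), with all BRSST-Ezh2 arrays below all BRSST-Luc arrays. Such separation was seen for 2 members, Sdhd and Cox6a2, both lower, and for 3.53 percent of all genes, 2.52 percent higher and 1.01 percent lower. Sdha differed the other way, by 0.62 ± 0.23 (0.242), and the groups overlapped. Atp5l was at -0.27 ± 0.11 (0.259), Ndufv3 at -0.27 ± 0.13 (0.355) and Cox6a2 at -0.24 ± 0.10 (0.317).

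A missed threshold does not show equal levels, and the 95 percent intervals give the bounds. For 81 of 89 members the interval lay within log2 0.5 of 0 on both sides, and for 84 it held 0. The median distance from a difference to either end of its interval was 0.244. Sdha had an interval from 0.13 to 1.11 and Sdhd from -0.52 to -0.10. By complex, no call was made in 36 members of complex I, 7 assembly factors, 4 of complex II, 8 of complex III, 17 of complex IV or 17 of complex V, and the smallest adjusted p were 0.355, 0.601, 0.165, 0.462, 0.317 and 0.259. With array quality weights 3 members were lower, Sdhd (0.0285), Atp5l and Ndufv3 (0.0412 each), where 9.8 percent of all genes were called. On the arrays of the high Y-linked class alone 1 member, of complex IV, was higher. That fit sets 2 BRSST-Ezh2 arrays against 2 BRSST-Luc arrays. Erythroid markers were lower in BRSST-Ezh2 than in BRSST-Luc in 11 of 11 tested cases with 0 called (7 at an unadjusted p under 0.05). Monocyte and macrophage markers were higher in 14 of 14 with 1 called (median log2 0.76). B lineage markers were higher in 13 of 13 (median 0.74) and T and NK cell markers in 10 of 11 (median 0.77), with 0 called. Neutrophil markers were higher in 12 of 17, stem and progenitor markers in 5 of 8 and cell cycle genes in 12 of 18, also with 0 called. Their part in the members' differences was not tested.

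**Figure D5:**
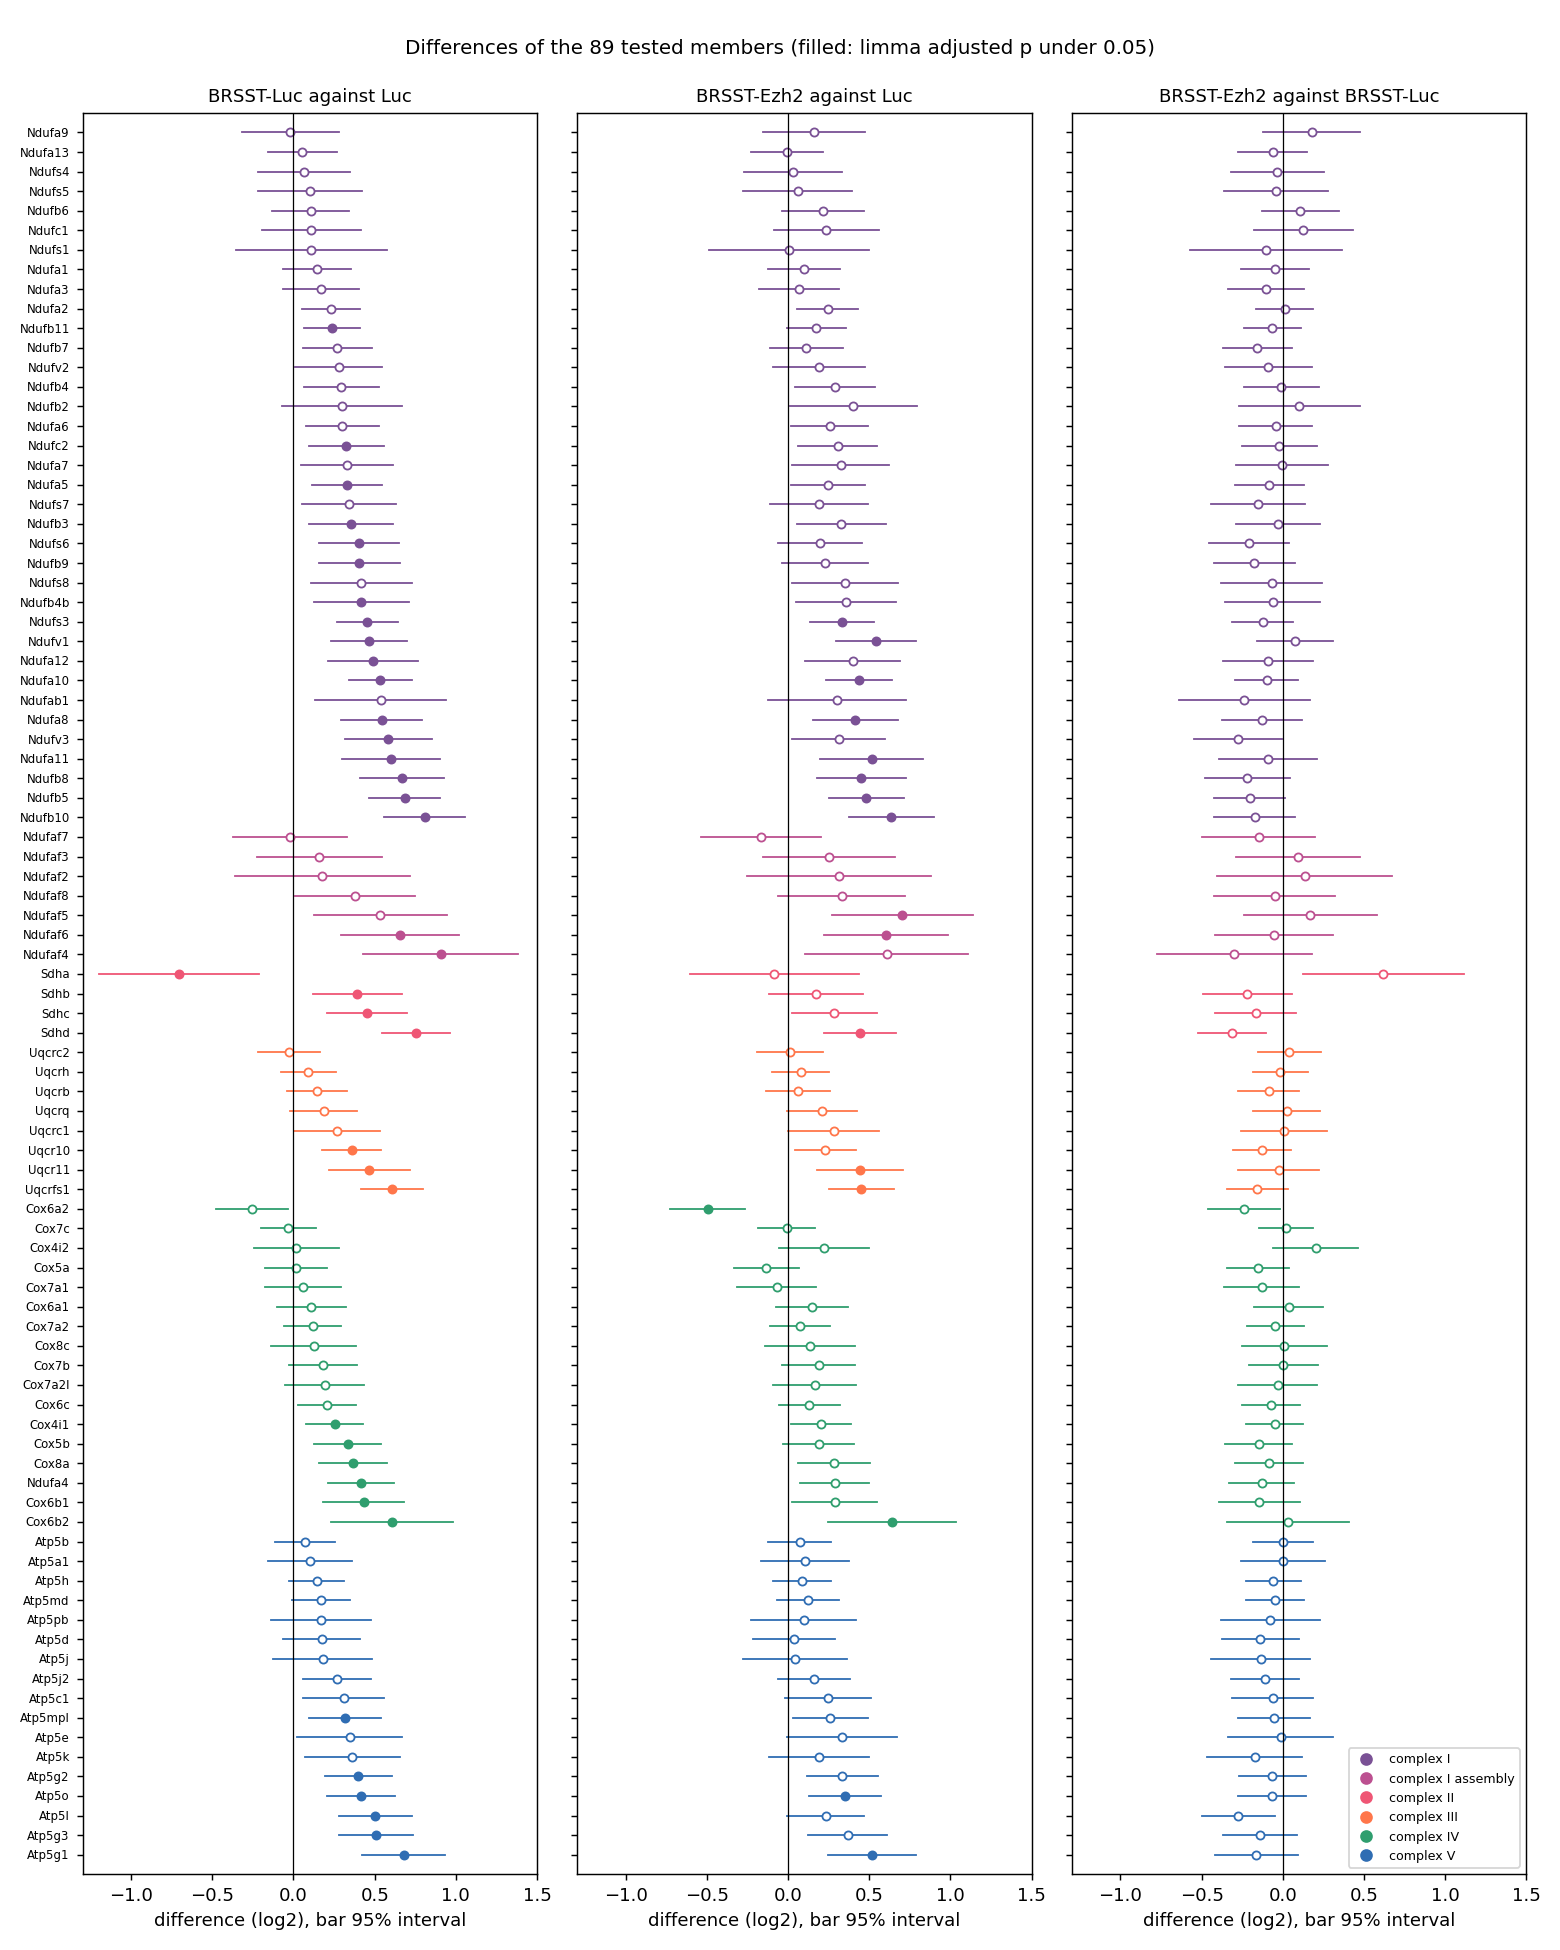
Difference in log2 with its 95 percent interval (x axis) for the 89 tested members (y axis, grouped by complex and ordered by the left panel) in BRSST-Luc against Luc, BRSST-Ezh2 against Luc and BRSST-Ezh2 against BRSST-Luc, with filled points for limma adjusted p under 0.05. There are 38, 17 and 0 filled points, Sdha is the filled point below 0 on the left (-0.71) and Cox6a2 that in the middle (-0.50), and the first 2 panels share the Luc arrays.

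The subunits need further proteins to be assembled and fed with electrons. Of 38 tested assembly factors outside the Ndufaf family, 7 rose (18.4 percent) and 1 fell (2.63 percent) in BRSST-Luc against Luc, where 10.8 percent of all genes were higher and 11.7 percent lower. Cmc1, which stabilises the first subunit of complex IV, rose by log2 0.89 ± 0.17 (limma adjusted p = 0.00299), Cox11, which delivers copper to that complex, by 0.75 ± 0.20 (0.015) and Coa7 by 0.71 ± 0.23 (0.0406). Assembly factors of complex II were called in both directions. Sdhaf1, which serves the iron-sulfur subunit Sdhb, rose by 0.61 ± 0.14 (0.0087), and Sdhaf2, which attaches the flavin to Sdha, fell by 0.38 ± 0.11 (0.0205). In BRSST-Ezh2 against Luc, Cmc1 (0.77 ± 0.18, 0.0174) and Sdhaf1 (0.62 ± 0.15, 0.0212) rose, Sdhaf2 fell by 0.44 ± 0.11 (0.0249), and no other factor on the list passed. The share called higher there was 5.26 percent, near the 5.51 percent of all genes.

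Of 15 tested genes for cytochrome c, coenzyme Q synthesis and inner membrane carriers, 2 rose in BRSST-Luc against Luc: Coq8b (0.51 ± 0.15, limma adjusted p = 0.0285) and Coq9 (0.45 ± 0.14, 0.0366), both of coenzyme Q synthesis. That share of 13.3 percent is near the 10.8 percent of all genes. None passed in BRSST-Ezh2 against Luc by limma, where 2 had an unadjusted p under 0.05. Of 17 tested genes listed for the citrate cycle, a list that also holds Mpc1 of the pyruvate carrier, 2 rose and 1 fell in BRSST-Luc. Mpc1 (0.66 ± 0.14, 0.00576) and the cycle gene Suclg1 (0.58 ± 0.16, 0.0172) rose. Ogdh, of the oxoglutarate dehydrogenase, fell (-0.54 ± 0.16, 0.0241). The shares, 11.8 percent higher and 5.88 percent lower, are near or below those of all genes, so the counts show nothing particular to the list. In BRSST-Ezh2, Idh3g (0.52 ± 0.12, 0.0178) and Suclg2 (0.40 ± 0.12, 0.0442) rose, 11.8 percent of the list against 5.51 percent of all genes.

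Among 19 tested regulators and factors of mitochondrial gene expression, 5 rose (26.3 percent) and 1 fell (5.26 percent) in BRSST-Luc against Luc, beside 10.8 and 11.7 percent of all genes. The list as a whole did not shift: 10 genes lay above 0 and 9 below, with a median of log2 0.04. Ppargc1b, a coactivator that drives mitochondrial genes, read 9.11, 8.83, 8.94, 9.15 and 9.11 in BRSST-Luc, 8.78, 9.16, 9.03 and 8.77 in BRSST-Ezh2 and 8.15, 8.24, 8.39 and 8.38 in Luc. Both BRSST groups lay above Luc on every array. It rose by log2 0.74 ± 0.11 in BRSST-Luc (limma adjusted p = 0.000737) and by 0.65 ± 0.12 in BRSST-Ezh2 (0.00425), where it was the 1 call of the list. That share of 5.26 percent is near the 5.51 percent of all genes called higher there. Mtor, a growth kinase (0.85 ± 0.23, 0.019), and Tfb2m, of mitochondrial transcription (0.63 ± 0.19, 0.0319), also rose in BRSST-Luc, with Polg2 and Ssbp1, which serve mitochondrial DNA replication. Gabpb2, a partner of the ETS factor GABPA, fell by 0.50 ± 0.12 (0.0109). In BRSST-Ezh2 against BRSST-Luc, limma called 0 genes of these 4 lists, with 3, 1, 3 and 2 at an unadjusted p under 0.05.

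Promoter sequences in RefSeq (GRCm38.p6), from 250 bases before to 50 after the start, were found for 77 of 93 members. The NRF1 letters, searched on both strands, occurred in 24.7 percent of these, in 11.3 percent of the tested genes with a promoter and in 5.19 percent of all promoters. The ETS letters CCGGAAG occurred in 24.7, 20 and 9.93 percent of the same sets. The letters AAGATGGCG of the factor YY1 occurred in 10.4, 3.59 and 1.64 percent, and TATAAA, the letters of the TATA box, in 10.4, 9.30 and 15.7 percent. Of the members called higher in BRSST-Luc than in Luc, 32 had a promoter, and 9 of these held the NRF1 letters, against 10 of the other 45. The corresponding counts were 7 and 12 for the ETS letters, 1 and 7 for the YY1 letters and 1 and 7 for TATAAA. These shares describe letters near the start and were not tested against the expression values.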

How the data were processed

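Whole marrow RNA of 13 samples was measured on Affymetrix arrays. Per the labels' protocols, 2 ng of RNA went through 10 PCR cycles, which can compress differences. The deposited values are log2 signals, and the submitters' processing notes name R 3.5.01 and oligo; background correction, normalization and oligo version: not given in the sources used here. Values run from 3.23 to 13.75.

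Of 22203 probe sets 19572 had 1 gene symbol and 2631 none; where a symbol had several (55 of 19505), that of highest mean was taken. All 93 members matched RefSeq (GRCm38.p6) by Entrez number. Genes above the array's median on 4 arrays or more, 10601 in all, were tested.

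All 13 arrays entered 1 linear model without covariates (limma 3.58.1, R 4.3.3, lmFit and eBayes), and p-values were adjusted by Benjamini-Hochberg over all tested genes, at a threshold of 0.05. The code was tested on simulated data. The precision is limited by the number of arrays. Alternatives were no filter or a 75th percentile filter, quantile normalization, equal medians, averaged probe sets, trended and robust variance, array quality weights, a replicate block, the Y-linked class as a block or its high class alone (split at log2 6.09), the 2 groups alone, an adjusted p of 0.01, and arrays left out singly or as the pair of BRSST-Luc replicates 2 and 5. Plots used matplotlib 3.10.9 and Python 3.11.15.

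Members and gene lists were chosen with earlier results of these data known. By rule, the text names for each complex and comparison the 4 called members of largest change in each direction (the 2 of smallest p where none was called), the 4 Sdh genes, tissue forms with their partners, and up to 3 called genes in each direction of each pathway list. Other members are named to account for them, and other genes after their values were seen.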

Additional observations from a re-analysis of the deposited data

Results flagged for a closer look

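The single arrays of 27 named members were compared within each group. In 6 of 81 pairs of member and group 1 array lay far from the others of its group, by a rule that chance meets in about 1 of 20 groups.

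On Luc replicate 3, Ndufaf4 read 7.48 (7.483) where the other Luc arrays read 8.47 to 8.65, and Sdhc read 7.718 where they read 8.11 to 8.16. On BRSST-Ezh2 replicate 2, Ndufaf6 read 8.916 beside 8.44 to 8.50 and Ndufa4 read 12.15 beside 12.01 to 12.03. On BRSST-Luc replicate 2, Cox6a2 read 8.721 beside 8.46 to 8.52. On BRSST-Luc replicate 5, Atp5o read 10.6 beside 10.81 to 10.88. Without Luc replicate 3 the difference of BRSST-Luc from Luc was 0.64 for Ndufaf4 in place of 0.91, and 0.35 for Sdhc in place of 0.45, and both calls held. Without BRSST-Ezh2 replicate 2 the rise of Ndufaf6 in BRSST-Ezh2 over Luc was 0.49 in place of 0.60 and did not pass (limma adjusted p = 0.153). Without BRSST-Luc replicate 5 the rise of Atp5o over Luc was 0.47 in place of 0.42 and passed (0.00369).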

How the results depend on the processing

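For BRSST-Luc against Luc the count of 38 called members was 18 at an adjusted p of 0.01 and 63 with array quality weights, and 22 (without Luc replicate 1) to 55 (without BRSST-Luc replicate 5) with 1 array left out. The other alternatives gave 27 (the 2 groups alone) to 49. For BRSST-Ezh2 against Luc the count of 17 was 3 at an adjusted p of 0.01, 9 without a filter, 29 without BRSST-Luc replicates 2 and 5 and 43 with array quality weights, and 5 (without Luc replicate 1) to 21 (without BRSST-Luc replicate 5) with 1 array left out. The other alternatives gave 12 to 25. For BRSST-Ezh2 against BRSST-Luc it was 0, but 3 with array quality weights and 1 with the high Y-linked class alone, and 0 to 0 with 1 array left out. The causes were not tested. The share of all genes called changed with the setting too, as given above for single arrays left out and array quality weights. The counts alone therefore do not show a change particular to the members. No difference of the named members that was called changed its sign in the alternatives compared gene by gene. Those were quantile normalization, equal medians, array quality weights, the replicate and Y-linked blocks, the 2 groups alone and single arrays left out. Deviations of same-numbered arrays correlated at -0.176 to 0.192, and whether replicate numbers pair the samples was not tested. A replicate block gave 49, 0 and 14 calls for BRSST-Luc against Luc, BRSST-Ezh2 against BRSST-Luc and BRSST-Ezh2 against Luc, and Sdha lost its call (0.0526). Quantile normalization and equal medians moved the median of all genes by 0.05 at most. With these numbers of arrays the 95 percent interval of a member's difference reached, at the median, 0.244 to either side in both comparisons with BRSST-Luc and 0.257 in BRSST-Ezh2 against Luc.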
